A study of Mus musculus with 6 samples.

Results

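Of 209687 captured regions of the mouse genome, 826 autosomal ones had a methylation level in every AOM/DSS library, with and without curcumin, that lay at least 8 percentage points outside both controls. In 579 of them all 4 treated libraries lay at least 8 points below the lower control, and in 247 all 4 lay at least 8 points above the higher control. They were chosen from the 177443 autosomal regions with a value in all 6 libraries, so they make up 0.326% and 0.139% of the regions that could qualify. The levels themselves chose these regions, so the differences between treated and control libraries given here describe them and are no test of a treatment effect.

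DNA was taken from scraped colon epithelial cells of C57BL/6 mice, an inbred laboratory strain, at 18 weeks of age. The AOM/DSS group had received the carcinogen azoxymethane, which gives rise to colon tumors in mice, together with dextran sulfate sodium, which damages the mucosa and inflames it, the AOM/DSS plus curcumin group had received both agents and curcumin, a polyphenol of turmeric, and the last group is labelled control. Each group has 2 libraries, replicates 0 and 1, and nothing in the labels says that they came from separate mice. Levels were read by capture bisulfite sequencing, in which selected stretches of the genome are enriched and unmethylated cytosines are converted before sequencing. Per the labels' protocol, the proximal segment and right-sided tumors were taken out before the rest was scraped, so the levels describe the remaining mucosa, and scrapings can hold other cells as well. A level that changed in every cell and a mixture of cells that changed cannot be told apart. The cell type was not checked against marker genes, since regions were not tied to genes here.

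In mammals, DNA methylation is mostly found on cytosines followed by guanine (CpGs). CpG-rich islands at gene starts are usually unmethylated, while sparse CpGs between and within genes are mostly methylated. Intermediate levels are common at enhancers and at the edges of islands, and in tissue made of several cell types. Maintenance enzymes copy the marks to the new strand when a cell divides, so that a change made in a stem cell of the crypt can be passed on to its daughters. Loss of methylation at sparse CpGs and gain at some islands are well known from colorectal tumors.

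A call is 1 reading of 1 CpG, and a region's level is the percentage of its calls that were methylated. The 6 libraries held 24682973 to 30727568 calls, and mean levels over the 177443 regions were 40.3% and 40.6% in AOM/DSS, 41.0% and 40.8% in AOM/DSS plus curcumin, and 41.5% and 41.2% in control. The median region that could qualify had 82 calls in the library with the fewest.

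The first question is how many regions the same rule finds when the 2 libraries set apart are not the 2 controls. There are 14 other ways to pick 2 of the 6 libraries. With the controls set apart, 579 regions had the other 4 libraries lower. The 14 other choices gave 163 to 440 such regions with a median of 295.5, so none reached 579. In the other direction the controls gave 247 regions, and the 14 other choices gave 208 to 922, with 12 of the 14 above 247. Among counts with the other 4 lower, the kept losses were therefore the most numerous, and the kept gains were fewer than under most choices. Regions with the AOM/DSS pair at least 8 points below the other 4 numbered 922, more than the 579 kept losses. Mean levels over all regions were highest in the 2 controls, and the part of this in the counts was not tested.

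**Figure D1:**
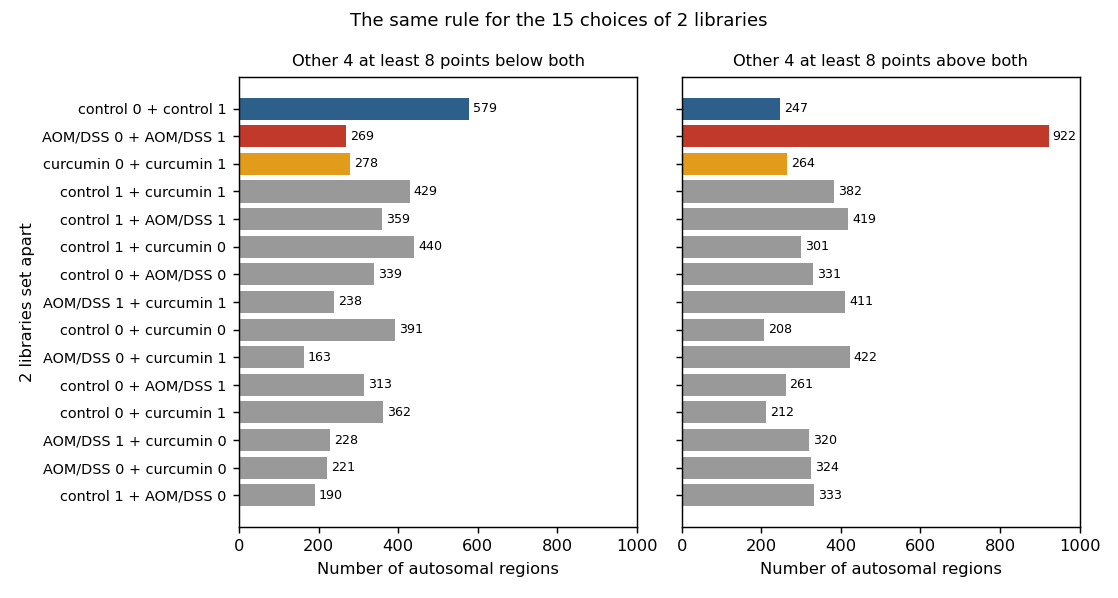
Number of autosomal regions (x axes) in which the other 4 libraries lie at least 8 points below (left) or above (right) both libraries named on the y axis, for all 15 choices of 2 libraries; blue marks the control pair, red the AOM/DSS pair, orange the AOM/DSS plus curcumin pair (written curcumin) and grey the 12 mixed pairs. The control pair has the longest bar on the left, 579 regions, and one of the shorter bars on the right, 247 regions, where the AOM/DSS pair reaches 922.

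The 12 choices that mix groups match no single treatment contrast. A difference between groups would change their counts too, so they are no treatment-free baseline. They gave 163 to 440 regions with the other 4 lower (median 326) and 208 to 422 with the other 4 higher (median 327.5). The kept losses were 1.78 times the median of the mixed choices and the kept gains 0.754 times. In both directions together the controls gave 826 regions, close to the 811 of the mixed choice with the most, and the AOM/DSS pair gave 1191. The mixed choice with the most losses paired control replicate 1 with AOM/DSS plus curcumin replicate 0.

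The excess of losses was also present in deeper regions. Among the 74092 regions with at least 100 calls in each library, 74 were kept lower, against 10 to 57 in the 14 other choices, and 3.08 times the median of the mixed ones. Another 23 were kept higher, against 13 to 153 in the others, 10 of which reached at least 23. In both directions together the controls gave 97 of these deep regions, and 1 mixed choice also gave 97. Over all depths at a margin of 10 points, the controls gave 389 in both directions, below the mixed maximum of 396. Their 275 losses at that margin stayed above the 78 to 204 of the other choices. At a margin of 20 points few regions were left. There were 7 kept lower and 2 kept higher, and 3 of the other 14 choices gave at least 7 losses and 11 gave at least 2 gains.

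Over the 579 kept losses the median level was 50% and 48.4% in the AOM/DSS libraries, 52.4% and 51.3% in the AOM/DSS plus curcumin libraries, and 68.8% and 69.5% in the controls. The median difference was -17.6 points for AOM/DSS against control and -15.9 points for AOM/DSS plus curcumin against control, 2 comparisons that share the controls. Over the 247 kept gains the median level was 59.3% and 58.8% in AOM/DSS, 60.7% and 59.6% in AOM/DSS plus curcumin, and 42.5% and 40.2% in control. The median differences were 16.4 and 16.9 points in the same order of comparisons. Most regions lay near the limit that chose them. The gap between the nearest treated and the nearest control library was under 10 points in 304 of the 579 losses and in 133 of the 247 gains, and it reached 20 points in 7 and 2.

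The rule does not fix the order of the treated groups within these regions. Among the kept losses the level with curcumin was above that of AOM/DSS by a median of 1.58 points, and 364 of 579 regions (62.9%) had the higher mean with curcumin. Over all 177443 regions the median was 0.113 points and the share 51.9%. All regions are an unlike set here too, since 36.4% of them lay under 10% in control, against 0% of the losses. The part of level and depth in this contrast was not tested. Without AOM/DSS replicate 1 the median over the kept losses was 0.746 points. Both curcumin libraries lay above both AOM/DSS libraries in 145 kept losses (25%), the direction toward the controls, and below both in 67 (11.6%), while 18.9% of all regions had the first arrangement and 16.0% the second. In the other 367 losses the 2 groups overlapped. Among the kept gains the median was 0.230 points. It was -0.137 points without AOM/DSS plus curcumin replicate 1 and 1.28 points without AOM/DSS replicate 1, so its sign changed with the libraries used. Both curcumin libraries lay above both AOM/DSS libraries in 55 of them (22.3%) and below both in 46 (18.6%).

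**Figure D2:**
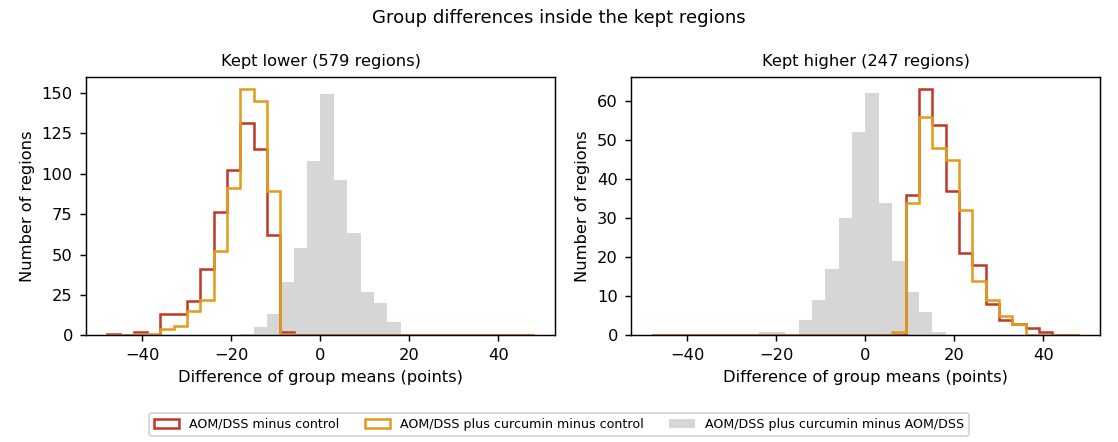
Number of regions (y axes) by difference of group means in percentage points (x axes), for the 579 regions kept lower (left) and the 247 kept higher (right); lines show AOM/DSS minus control (red) and AOM/DSS plus curcumin minus control (orange), and the grey area AOM/DSS plus curcumin minus AOM/DSS. The lines lie on one side of 0 because the rule requires it, with medians of -17.6 and -15.9 points on the left, and the grey area is spread on both sides of 0, with a median of 1.58 points on the left and 0.230 points on the right.

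Few of these regions passed a test across all 179922 regions with values in every library. With edgeR's quasi-likelihood test and Benjamini-Hochberg adjustment, a region was called where its group means differed by 10 points or more with an adjusted p under 0.05. For AOM/DSS against control 0.00389% of all regions were called, and 1 kept loss and 2 kept gains were among them. For AOM/DSS plus curcumin against control 0.00% were called, and 0 kept regions, and limma also called 0. Without adjustment (p under 0.05, the same 10 points) that contrast picked 298 of the 579 losses and 136 of the 247 gains, against 1.46% of all regions, 0.899% lower and 0.562% higher. For AOM/DSS against control 381 losses and 134 gains were picked in this way, against 2.82% of all regions, 2.10% lower and 0.723% higher. The rule used both contrasts, so high shares follow from the choice of regions and are no separate support.

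The contrast of AOM/DSS plus curcumin with AOM/DSS called 0.00% of all regions in edgeR, and 0 kept ones, and limma also called 0. Without adjustment 2.00% of all regions were picked in this contrast. Of the kept losses, 6 (1.04%) were higher with curcumin and 0 were lower, where 1.29% of all regions were higher and 0.706% lower. Of the kept gains 0 were higher and 2 (0.810%) lower with curcumin. A p that misses the threshold does not show equal levels. The means of the treated groups lay within 5 points of each other in 361 of the 579 losses (62.3%) and 153 of the 247 gains (61.9%), against 74.8% of all regions. All regions are no like set: 36.4% of them lay under 10% in control, against 0% of losses and 5.26% of gains. They also had more calls, with a median of 82 in the thinnest library against 43 and 40. The part of level and depth in these shares was not tested.

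The widest gap among the losses was on chromosome 8 (chr8:73365554-73365647, build mm9 as for all coordinates here, 4 CpGs). Its level was 13.5% and 11.4% in AOM/DSS, 16.7% and 6.90% in AOM/DSS plus curcumin, and 50% and 42.1% in control. The 4 treated libraries lay together, 25.4 points below the lower control at the nearest. These levels rest on 29 to 38 calls, and counting error alone is wide there. The 95% Wilson interval ran from 7.34% to 33.6% in AOM/DSS plus curcumin replicate 0, and from 27.9% to 57.8% in control replicate 1, so these intervals overlapped. The captured region 226 bases away was nearly unmethylated, at 1.09% in AOM/DSS, 1.67% with curcumin and 0.45% in control, and the one 818 bases away on the other side stood at 99%, 100% and 97.5%. The loss thus lies between a nearly unmethylated and a nearly fully methylated stretch, neither of which was lower in the treated libraries. The unmethylated stretch, at 0.45% in control, had almost no room to be lower.

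Some other losses with wide gaps also rested on few calls, and their surroundings differed. At chr2:26460318-26460457 (6 CpGs, 28 to 44 calls) the level was 38.6% and 27.9% in AOM/DSS, 35.7% and 32.4% with curcumin, and 67.5% and 63.4% in control. Its neighbour 107 bases away stood at 11%, 6.09% and 8.15% in the same order of groups, too low to show a loss of that size. At chr14:64070453-64070599 (4 CpGs, 23 to 35 calls) the level was 25.7% and 17.9% in AOM/DSS, 29.2% and 13.8% with curcumin, and 52.2% and 60.9% in control. Its neighbour 211 bases away stood at 24.2%, 32.0% and 23.2% in the same order of groups, not lower in the treated means. At chr13:66925170-66925312 (4 CpGs, 34 to 44 calls) it was 58.1% and 61.8% in AOM/DSS, 64.7% and 65.9% with curcumin, and 92.3% and 87.2% in control. At this last region both curcumin libraries lay between AOM/DSS and control, and at the chromosome 14 region they enclosed the AOM/DSS libraries.

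The remaining losses among the 10 widest lay on chromosomes 1, 8, 15 and 16, with gaps of 18.3 to 25.1 points. Treated levels were most alike at chr15:36807975-36808147 (4 CpGs), with 37.4% and 35.4% in AOM/DSS and 36.0% and 37.7% with curcumin, against 58.1% and 59.5% in control, at 42 to 107 calls. At chr1:127686290-127686351 (3 CpGs, 22 to 46 calls) the levels were 63.6% and 56.8% in AOM/DSS, 60% and 63.0% with curcumin, and 83.3% in both controls. Beside the loss at chr8:107122673-107122738 (3 CpGs, 27 to 73 calls), the captured region 113 bases away differed the other way. It stood at 12.5% in AOM/DSS, 14.8% with curcumin and 4.33% in control, with all 4 treated libraries above both controls.

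**Figure D3:**
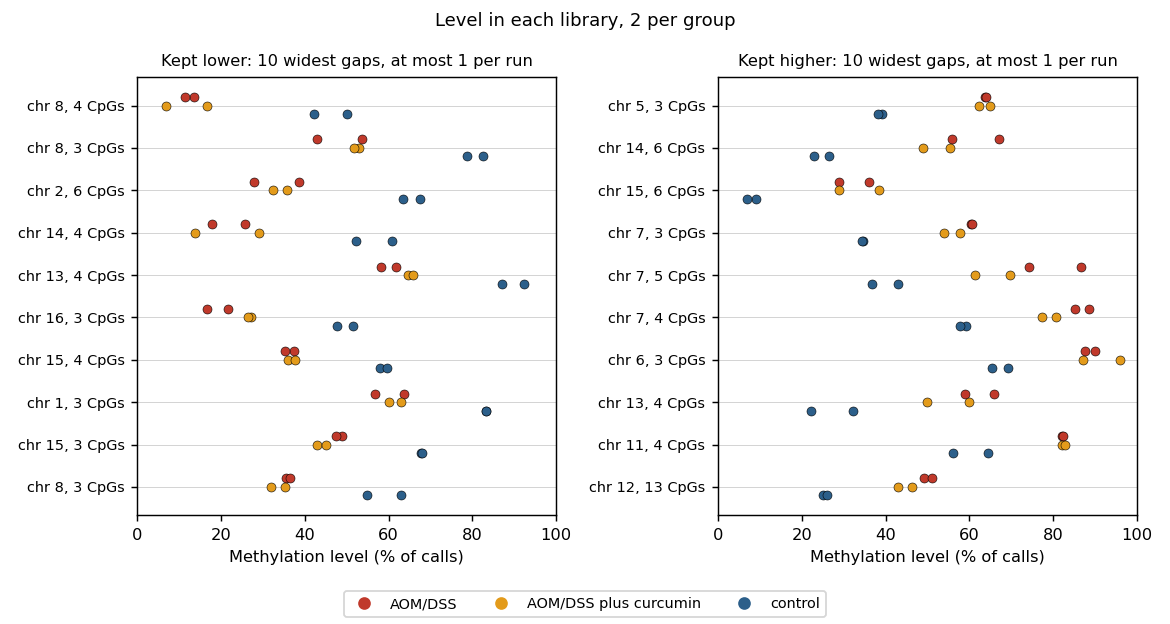
Methylation level (x axes, % of calls) in each of the 6 libraries for the 10 regions with the widest gap kept lower (left) and kept higher (right), taking at most 1 of any kept regions within 1000 bases of each other, so that the second gain of the chromosome 7 pair (gap 18.4 points) is not drawn; there is 1 point per library and 2 per group; rows give the chromosome and the number of CpGs. In every row the AOM/DSS (red) and AOM/DSS plus curcumin (orange) points lie together on one side of the control points (blue), as the rule requires, with gaps of 18.3 to 25.4 points on the left and 16.9 to 23.1 points on the right.

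The widest gap among the gains was at chr5:37245025-37245085 (3 CpGs, 21 to 64 calls). Its level was 63.6% and 64.1% in AOM/DSS, 62.2% and 65.0% with curcumin, and 39.1% and 38.1% in control. The 4 treated libraries lay within 3 points of each other, and no captured region lay within 1000 bases. At chr14:31404207-31404345 (6 CpGs, 51 to 91 calls) the level was 55.8% and 67.2% in AOM/DSS, 55.4% and 49% with curcumin, and 26.4% and 23.0% in control. Its neighbour 449 bases away was low in every group, at 5.44%, 4.35% and 4.88%. At chr15:80002266-80002533 (6 CpGs, 44 to 73 calls) the level was 28.8% and 35.9% in AOM/DSS, 38.3% and 29.0% with curcumin, and 8.93% and 6.82% in control. Of these 3 gains, only that of chromosome 14 had both curcumin libraries below both AOM/DSS libraries.

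At chr12:109217926-109218265 (13 CpGs, 41 to 68 calls) the level was 49.2% and 51.0% in AOM/DSS, 42.9% and 46.3% with curcumin, and 25% and 25.9% in control. This region holds the most CpGs of the 10 gains shown in the plot of levels by library. It stands between a methylated neighbour 97 bases away, at 83.4%, 88.3% and 89.1% in AOM/DSS, curcumin and control, and an unmethylated one 166 bases away, at 4.25%, 6.88% and 5.56%. The gain was seen in the region between the 2 neighbours and in neither of them, though the methylated one had little room to rise.

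Few kept regions had another one kept in the same direction nearby. Of the 579 losses 573 had no other kept loss within 1000 bases, and the other 6 formed 3 pairs. Of the 247 gains 245 stood alone and 2 formed a pair. Thus 1.04% of losses and 0.810% of gains had such a partner. Of all tested regions 71.0% had another tested one within 1000 bases, but only 0.326% were kept losses and 0.139% kept gains. With shares that low, standing alone is the usual case, and these counts do not show that kept regions are isolated.

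The pair of gains lies on chromosome 7 and holds both gains that edgeR called for AOM/DSS against control. At chr7:139763446-139763496 (5 CpGs, 109 to 174 calls) the level was 74.3% and 86.8% in AOM/DSS, 61.4% and 69.7% with curcumin, and 36.8% and 42.9% in control (edgeR adjusted p = 0.0392 for AOM/DSS, 1 for curcumin, each against control). At chr7:139763677-139763700 (3 CpGs, 176 to 260 calls) it was 86.5% and 86.4% in AOM/DSS, 75.2% and 84.4% with curcumin, and 56.8% and 49.2% in control (edgeR adjusted p = 0.0357 and 1). In both, the curcumin libraries lay below the AOM/DSS libraries and nearer to them than to the controls. Neither region was called in any of the 6 fits that left out 1 library, where the edgeR adjusted p ran from 0.0645 to 0.897 for the first region and from 0.0530 to 0.620 for the second.

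The pair on chromosome 17 holds the 1 loss that edgeR called. At chr17:35338139-35338267 (5 CpGs, 65 to 96 calls) the level was 13.5% and 8.33% in AOM/DSS, 44.7% and 28.8% with curcumin, and 54.3% and 60% in control (edgeR adjusted p = 0.0228 for AOM/DSS, 1 for curcumin, each against control). Its mean was 10.9% ± 3.64 in AOM/DSS, 36.7% ± 11.3 with curcumin and 57.2% ± 4.0 in control (SD, n = 2 each). The 25.8 points between curcumin and AOM/DSS are the largest such difference among the kept losses (edgeR adjusted p = 0.627). It was called in 0 of the 6 fits that left out 1 library, with an edgeR adjusted p from 0.0558 to 0.757. Its partner at chr17:35337598-35337831 (8 CpGs, 82 to 110 calls) stood at 49% and 26.4% in AOM/DSS, 59.6% and 47.6% with curcumin, and 77.1% and 69.5% in control. The region 115 bases away on the other side, not itself kept, stood at 21.4%, 43.0% and 55.7% in AOM/DSS, curcumin and control. Here 3 neighbouring regions were lower in all 4 treated libraries, each with the curcumin mean between the others.

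On chromosome 16 a pair of losses lay 315 bases apart. At chr16:92040093-92040132 (3 CpGs, 125 to 175 calls) the level was 21.7% and 16.8% in AOM/DSS, 27.2% and 26.4% with curcumin, and 47.6% and 51.6% in control. At chr16:92039457-92039778 (9 CpGs, 99 to 164 calls) it was 39.9% and 38.4% in AOM/DSS, 45.2% and 43.4% with curcumin, and 59.3% and 60.7% in control. Both curcumin libraries lay between the other groups in each. The next region, 573 bases further on, was methylated in every group, at 88.4%, 90.8% and 91.8%.

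The last pair of losses lies on chromosome 2. At chr2:172656361-172656565 (6 CpGs, 32 to 63 calls) the level was 43.8% and 38.6% in AOM/DSS, 47.4% and 21.1% with curcumin, and 65.1% and 58.3% in control. At chr2:172656901-172657044 (3 CpGs, 22 to 39 calls) it was 2.56% and 10% in AOM/DSS, 11.5% and 4.55% with curcumin, and 22.6% and 21.9% in control. The curcumin libraries differed widely in the first of these regions.

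Captured regions beside the kept ones had small differences. Regions that met the rule themselves were left out of these neighbours, so the widest differences were excluded beforehand. Within 1000 bases of 313 kept losses lay 539 other regions, and their median difference between treated and control was -0.715 points, with 59.2% below 0. Over all regions that were not kept it was -0.198 points, with 53.8% below 0. The median was -1.13 points at 100 to under 250 bases, -1.51 points at 250 to under 500 bases and 0.0256 points at 500 to 1000 bases. All 4 treated libraries lay below both controls in 67 of the 539 (12.4%), against 8.11% of all regions that were not kept, or 8.39% with the kept ones counted. Close neighbours can share reads, so values at short distance are not independent of the kept region.

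Within 1000 bases of 147 kept gains lay 269 other regions with a median difference of 0.263 points, and 53.9% of them lay above 0. Over all regions that were not kept 46.0% lay above 0. All 4 treated libraries lay above both controls in 19 of them (7.06%), against 5.33% of all regions not kept. At 100 to under 250 bases the median was 0.119 points. Medians of the neighbours were smaller than those of the kept regions in both directions, as the choice of both sets requires. Kept regions had to pass the margin, and neighbours that passed it were left out.

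**Figure D4:**
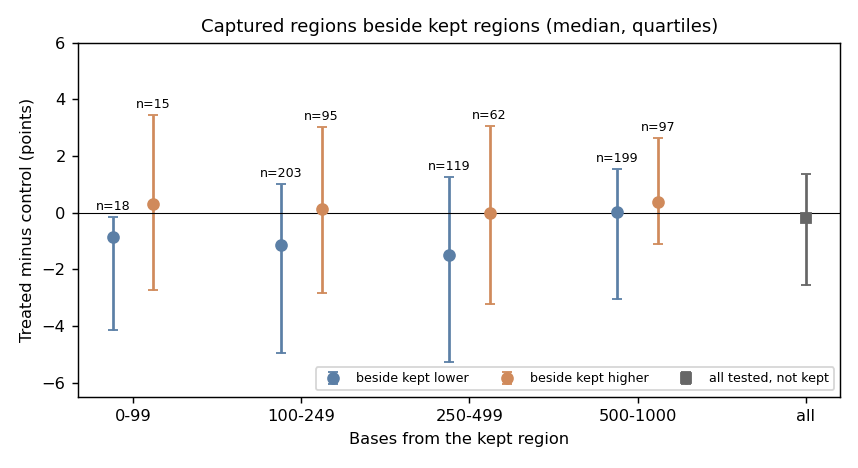
Difference between the mean of the 4 treated libraries and the mean of the 2 controls (y axis, percentage points) in captured regions that are not kept, by their distance from the nearest kept region (x axis, bases); points are medians, bars run between the quartiles, blue stands for neighbours of kept losses, orange for neighbours of kept gains and the grey square for all regions not kept, and n counts regions. Blue medians lie at -1.13 and -1.51 points between 100 and 500 bases and near 0 beyond, and orange medians lie between -0.00433 and 0.381 points.

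Neighbours also differed in level, which moves with the difference in the whole data set. At a mean level of 50 to 70% the 66 neighbours of kept losses had a median difference of -3.64 points, while all regions not kept had -1.74 points. At 70 to 90% the values were -2.16 points for 134 neighbours and -1.61 points for all, and above 90% they were -0.746 and -0.657 points. At 10 to 30% they were -1.14 points for 77 neighbours and 0.0476 points for all. At under 10%, 153 neighbours had 0.126 points and all regions 0.141 points. Neighbours of losses thus differed most from all regions at 50 to 70% and least at under 10%. The difference itself was not tested.

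The kept regions were short, held few CpGs and were thinly covered. They had a median of 4 CpGs in both directions, where all regions had 7, and a median length of 123 bases, where all had 190. Their CpG density differed less, at a median of 3.57 CpGs per 100 bases in the losses and 3.72 in the gains, against 4 overall. The library with the fewest calls had a median of 43 calls in the losses and 40 in the gains, against 82 overall. Regions with 3 CpGs yielded 6.12 losses and 2.37 gains per 1000, and regions with at least 20 CpGs yielded 0.265 and 0.132. Regions with 20 to 49 calls in the thinnest library yielded 6.65 losses and 3.10 gains per 1000, and those with at least 200 calls 0.402 and 0.110. The median 95% Wilson interval of a level was 21.8 points wide in the losses and 22.5 points in the gains, against 11.9 points over all regions. The part of counting error in the number of kept regions was not tested. Kept regions also lay further from other captured ones, at a median of 489 bases for losses and 340 for gains, against 188 for all.

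The losses and gains came from different levels, as the rule in part requires. By control level, losses were most frequent at 50 to 70%, with 9.62 per 1000, and 227 of the 579 lay at 70 to 90%. Gains were most frequent at 30 to 50%, with 5.57 per 1000. From unmethylated regions, under 10% in control, came 13 gains of 64603 regions.

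**Figure D5:**
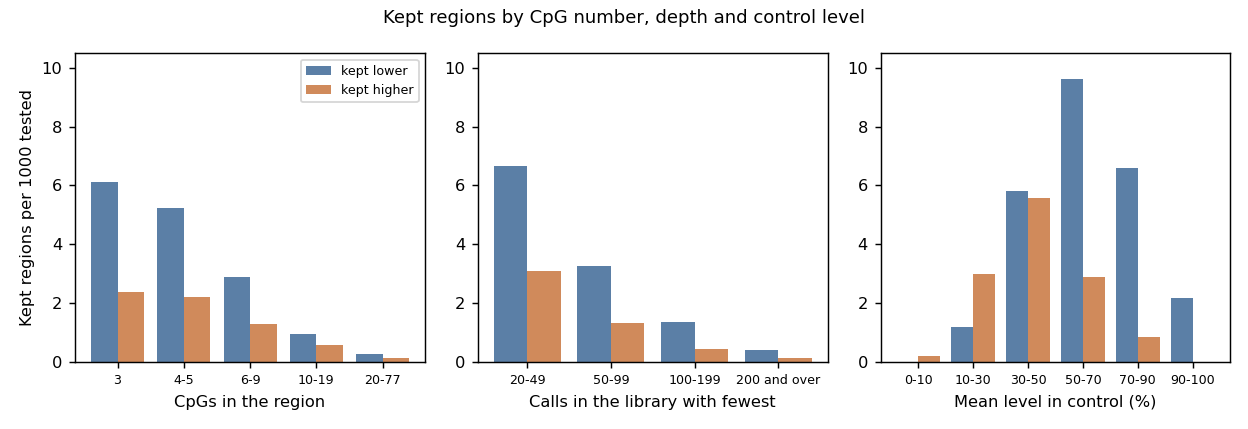
Regions kept lower (blue) and kept higher (orange) per 1000 autosomal regions with a value in all 6 libraries (y axes), by number of CpGs in the region (left), calls in the library with the fewest (middle) and mean level in the 2 controls (right, %). Both bars fall with CpGs and with calls, from 6.12 and 2.37 per 1000 at 3 CpGs to 0.265 and 0.132 at 20 or more, and losses peak at 50 to 70% in control and gains at 30 to 50%.

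Every autosome held kept regions. Losses ran from 1.89 per 1000 on chromosome 13 to 4.59 on chromosome 9, and gains from 0.627 on chromosome 9 to 1.78 on chromosome 17. On chromosome 9 there were 44 losses and 6 gains.

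Regions with many CpGs, counted by number and not by density, are the minority in which a level rests on many sites. Among kept regions 42 losses and 25 gains held at least 10 CpGs, and 6 losses and 3 gains at least 20. These shares were below those of all regions. Regions with 10 to 19 CpGs made up 6.22% of losses and 8.91% of gains, against 21.4% of all regions. Those with at least 20 made up 1.04% and 1.21%, against 12.8%. The gain with the most CpGs, at chr4:148265088-148265531 (37 CpGs, 259 to 323 calls), stood at 65.6% and 53.4% in AOM/DSS, 50% and 61.2% with curcumin, and 40.3% and 35.9% in control. Its neighbour 125 bases away was methylated throughout, at 90.8%, 96.3% and 94.3%. At chr7:109255601-109255916 (22 CpGs, 71 to 178 calls) the level was 46.3% and 43.7% in AOM/DSS, 34.4% and 39.9% with curcumin, and 21.1% and 25.4% in control, while the region 19 bases away stood at 39.2%, 32.7% and 33.7%. At the first of these gains the treated groups overlapped, and at the second both curcumin libraries lay between AOM/DSS and control.

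Among losses with many CpGs, chr7:51717126-51717545 (35 CpGs, 180 to 352 calls) stood at 28.7% and 28.2% in AOM/DSS, 30.5% and 30.8% with curcumin, and 39.1% and 43.3% in control. Regions on both sides of it did not share the loss, with treated minus control differences of -0.679 and 4.03 points. The loss with the most CpGs, at chr5:147072557-147072918 (37 CpGs), stood at 26.6% and 18.9% in AOM/DSS, 25% and 18.8% with curcumin, and 44.0% and 36.0% in control. Its depth moved with the groups. It held 903 and 1647 calls in AOM/DSS, 1234 and 2501 with curcumin, and 393 and 317 in control, a ratio of 4.44 between treated and control after scaling each library by its median, while its neighbour 636 bases away held at most 184 calls in any library. The part of that depth in the lower level was not tested. A ratio beyond 2-fold in either direction occurred in 3 of the 579 losses, 0 of the 247 gains and 0.0930% of all regions. Another of the 3, chosen after its values were seen, was chr3:5860292-5860492 (15 CpGs), with 38.9% and 27.4% in AOM/DSS, 34.1% and 21.9% with curcumin, and 76.2% and 51.9% in control, and a ratio of 3.04. The last of the 3, chr1:54252017-54252103 (9 CpGs), had fewer calls in treated libraries, with a ratio of 0.425.

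In 9 losses and 3 gains the 95% Wilson intervals of all 4 treated libraries lay clear of those of both controls, an arrangement found in 0.00620% of all regions for losses and in 0.00282% for gains. These intervals cover counting error only, and calls from 1 read are not independent. They rest on the same calls as the levels that chose the regions. The arrangement is thus more frequent among kept regions by construction and is no separate support. The 12 regions include both gains of the chromosome 7 pair, the gain on chromosome 15, a loss of the chromosome 16 pair and the deep chromosome 5 loss described above. Others, singled out after their values were seen, follow. At chr11:75286194-75286359 (9 CpGs, 212 to 276 calls) the level was 19.6% and 14.7% in AOM/DSS, 23.6% and 26.9% with curcumin, and 45.1% and 42.2% in control. At chr4:129140638-129141067 (17 CpGs, 293 to 482 calls) it was 23.6% and 19.1% in AOM/DSS, 30.3% and 33.8% with curcumin, and 46.8% and 48.1% in control. At chr5:122291730-122291858 (5 CpGs, 56 to 112 calls) it was 71.3% and 72.5% in AOM/DSS, 71.8% and 72.9% with curcumin, and 89.3% and 92.9% in control. In the first and second of these regions the curcumin libraries lay between AOM/DSS and control, and in the chromosome 5 region the treated groups were within 2 points.

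At chr10:111020127-111020259 (8 CpGs, 136 to 234 calls) the level was 38.5% and 34.9% in AOM/DSS, 42.9% and 41.2% with curcumin, and 59.7% and 83.3% in control, where the controls lay far apart. At chr10:25152202-25152683 (16 CpGs, 453 to 614 calls) it was 45.0% and 36.1% in AOM/DSS, 48.4% and 46.8% with curcumin, and 65.1% and 57.8% in control. At chr2:38861414-38861750 (12 CpGs, 204 to 386 calls) it was 13.0% and 8.37% in AOM/DSS, 7.97% and 9.84% with curcumin, and 22.8% and 22.1% in control. At chr3:61962886-61963167 (14 CpGs, 83 to 281 calls) it was 57.2% and 67.6% in AOM/DSS, 55.4% and 49.5% with curcumin, and 81.1% and 91.6% in control. The last is the 1 region of these 4 where both curcumin libraries lay below both AOM/DSS libraries, and so further from control.

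The treated groups differed most in mean level in a few regions. At chr3:65243005-65243124 (3 CpGs, 42 to 64 calls) the level was 50% and 53.1% in AOM/DSS, 71.7% and 68.1% with curcumin, and 88.1% and 82.4% in control. At chr16:45678273-45678333 (3 CpGs, 20 to 34 calls) it was 52.4% and 33.3% in AOM/DSS, 65.0% and 55.0% with curcumin, and 76.7% and 79.4% in control. Among the gains, chr19:7012723-7012976 (7 CpGs, 27 to 79 calls) stood at 73.7% and 75.7% in AOM/DSS, 59.3% and 53.5% with curcumin, and 33.3% and 44.3% in control. In all 3 the curcumin libraries lay between AOM/DSS and control. A gain on chromosome 18 (chr18:61753231-61753320) had means of 87.8% in AOM/DSS, 64.2% with curcumin and 50% in control. In the opposite direction, chr2:90584770-90584840 (4 CpGs) stood at 47.5% and 42.9% in AOM/DSS, 75% and 47.2% with curcumin, and 27.0% and 34.5% in control, so that its curcumin value rested on replicate 0. In edgeR's test of curcumin against AOM/DSS these 5 regions had adjusted p-values of 0.935 to 0.966.

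The limit of 8 points cuts through regions that look alike. Just inside it, chr4:137248799-137249057 (5 CpGs) stood at 11.4% and 8.77% in AOM/DSS, 14% and 8.82% with curcumin, and 25.6% and 22.0% in control. Just outside it, chr17:27701185-27701606 (13 CpGs) stood at 51.5% and 50% in AOM/DSS, 52.2% and 52.6% with curcumin, and 60.6% and 62.8% in control. For gains, chr4:66413102-66413139 (3 CpGs) stood just inside at 72.7% and 73.1% in AOM/DSS, 82.6% and 78.3% with curcumin, and 50% and 64.7% in control, and chr14:12139957-12140094 (3 CpGs) just outside at 53.6% and 55.7%, 62.0% and 56.5%, and 41.0% and 45.6%, in the same order of groups.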

How the data were processed

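The deposited files hold counts, for each of 209687 regions the number of CpGs, of methylation calls and of methylated calls. Per the labels, capture used Agilent's SureSelectXT kit for mouse methylation. Bismark (0.15.0), ChIPseeker (1.10.3) and R (3.4.0) and the build mm9 are listed in the submitters' processing notes. Settings, region boundaries and duplicate removal were not given in the sources used here. A value in the files always rests on 20 calls or more. Coordinates are the files' own, which do not say whether starts count from 0 or from 1. No mm9 annotation or sequence was used here, so regions were tied to no gene and no sequence is shown.

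Levels are 100 times methylated calls over all calls. The 179922 regions with a value in all 6 libraries were fitted with edgeR 4.0.16 in R 4.3.3, with a coefficient per library for coverage and per group for methylation. The spread was estimated for each region and shared by the groups, and Benjamini-Hochberg adjustment was applied. limma 3.58.1 was an alternative. Counts, medians and Wilson intervals came from Python 3.11.15, numpy 2.4.6 and pandas 2.3.3. Both procedures were run on simulated data with large shifts put in, and the simulation for the rule held counting error only. That checks the code and does not show how well either performs with 2 libraries a group.

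Regions described singly follow a rule: per direction the 10 widest gaps with at most 1 per run, up to 3 runs within 1000 bases, 2 regions on each side of the margin, 3 with the largest difference between the treated groups, 2 with the most CpGs, and all called ones. Others are named as chosen later. Members and rules were chosen with earlier results of these data known. The p-values reflect only how far these libraries spread, which may be technical, and intervals cover counting error only, since no molecular identifiers are named.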

Additional observations from a re-analysis of the deposited data

How the results depend on the processing

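The number of kept regions follows the margin and the depth. Losses and gains numbered 1836 and 723 at a margin of 5 points, 275 and 114 at 10 points, 7 and 2 at 20 points, 248 and 93 with at least 50 calls in each library, and 74 and 23 with at least 100. With chromosome X included they numbered 590 and 251, and with 1 methylated and 1 unmethylated call added 531 and 218. Leaving out 1 library loosens the rule by construction, and losses then numbered 997 to 4317 and gains 469 to 3033, most without control replicate 0.

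edgeR's 7 calls for AOM/DSS against control became 41 with a replicate block, 1 with at least 50 or 100 calls or with only the 4 libraries compared, 0 with limma, and 1 to 8 without 1 library. Its 0 calls for AOM/DSS plus curcumin against control became 1 without control replicate 0, within a range of 0 to 1, and stayed 0 with a replicate block. Those for AOM/DSS plus curcumin against AOM/DSS became 1 with a replicate block or only the 4 libraries compared, and 0 to 1 without 1 library. With 0 calls, 7507 and 9439 of 179922 regions had an unadjusted edgeR p under 0.05 in these 2 contrasts. limma called 0 in both, with 8765 and 10028 at an unadjusted p under 0.05. If no region differed, a share of about 0.05 would still fall under that threshold, so these numbers alone show no effect. The cause of the shifts in calls was not tested. Under the replicate block 6 kept losses and 2 kept gains were called for AOM/DSS against control. Each of the 3 kept regions called without it was called under 1 of its 10 or 11 alternatives, the replicate block. The replicate numbers are not known to pair libraries, since deviations of same-numbered libraries correlated by only 0.00587 to 0.0585.

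The median difference of curcumin minus AOM/DSS over losses was 0.746 to 2.14 points without 1 library, lowest without AOM/DSS replicate 1. For gains it was -4.78 points at a margin of 20 points, over 2 regions, and -0.137 to 1.28 points without 1 library. Medians beside kept regions ran from -0.953 to -0.556 points for losses and from 0.185 to 0.326 points for gains without 1 library. Depth limits single regions: the median Wilson interval was 21.8 points wide in kept losses.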

Other observations

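On chromosome X, outside the rule, 11 of 2443 regions lay at least 8 points below the lower control in all 4 treated libraries and 4 lay as far above the higher one. On chromosomes Y and M, 0 of 16 and 0 of 20 regions met the rule in either direction.

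Among kept regions with at least 100 calls in each library, the 5 losses with the widest gap, chosen after the values were seen, include chr9:122642404-122642621 (6 CpGs, 125 to 163 calls), at 35.2% and 36.2% in AOM/DSS, 30.3% and 31.1% with curcumin, and 52.1% and 55.3% in control. They also include chr6:47893576-47893863 (10 CpGs, 111 to 158 calls), at 40.6% and 41.8% in AOM/DSS, 41.4% and 34.6% with curcumin, and 55.6% and 55.2% in control. The gains of this kind beside the chromosome 7 pair were chr15:53142751-53143021 (13 CpGs, 131 to 169 calls), at 39.1% and 41.2%, 42.0% and 40.6%, and 25.3% and 25.5% in the same order of groups, chr4:81950638-81950713 (6 CpGs, 136 to 226 calls), at 57.1% and 55.8%, 54.5% and 54.9%, and 41.9% in both controls, and chr13:44389484-44389692 (7 CpGs, 105 to 136 calls), at 87.5% and 85.5%, 84.9% and 84.8%, and 67.3% and 72.9%. Over these 3 gains the treated groups differed by less than 2 points.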
